A study of Homo sapiens with 6 samples.

Results

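Proteasome and ubiquitin enzyme genes are described here as carriers of DNA G-quadruplex (G4) signal in U2OS, a human osteosarcoma cell line. The members were taken from the autosomes, 1 to 22, and X, as protein-coding genes whose symbol begins with PSMA, PSMB, PSMC, PSMD, PSME, UBE2 or FBXO, or is CUL or USP followed by digits and at most 1 letter. This gave 175 of 19821 protein-coding genes, namely 43 proteasome genes, 36 UBE2 genes, 36 FBXO genes, 8 CUL genes, 50 USP genes, and PSMC3IP and PSME3IP1, which share the prefix but encode no proteasome subunit. G4s are stacked structures that guanine-rich DNA strands can fold into, and in cells they are found mostly in open chromatin at promoters. Chromatin fragments bound by BG4, an antibody fragment that recognises them, were sequenced (ChIP-seq). Cells treated with 1,6-hexanediol (HD), an alcohol that dissolves many biomolecular condensates, were compared with untreated cells (Ctrl), with 2 ChIP libraries and 1 input library in each condition. Chromatin of both conditions was fixed with 1% formaldehyde for 10 min. No source used here states how much hexanediol was given or for how long.

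One deposited peak list per condition was used, with 2172 HD and 3376 Ctrl peaks on the chromosomes compared. No value therefore has an error between libraries, and no difference between conditions was tested. In the HD list each of the 2269 peaks is named after replicate 1, and no source used here says whether the second ChIP library entered it. The ChIP track of HD was the deeper one, with a genome-wide mean of 5.51 fragments over a position in HD and 3.74 in Ctrl, a ratio of 1.47, so fragment numbers are not comparable between lists without scaling. A gene is called marked when a peak lies within 1 kb of either of its ends. A missing peak is a missing call, not a measured absence of signal. Values called input are expectations recovered from the deposited columns, held at or above the genome-wide value of 5.51 (HD) or 3.74 (Ctrl). They stood at that value, to rounding, for USP1 in HD. In Ctrl they did so for PSMC4, PSMD9, PSME1, FBXO31, UBE2S, USP22, USP25 and CYLD. At these genes the ratio is over the genome-wide value and not over input measured at the site. Intervals are exact 95% binomial or Poisson intervals and cover counting error only.

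The proteasome is the protease that degrades proteins tagged with ubiquitin. Its barrel, the 20S core, is built from PSMA (alpha) and PSMB (beta) subunits, of which some beta subunits cut the substrate, and its 19S cap, built from PSMC ATPases and PSMD subunits, recognises, unfolds and feeds the substrate. PSME genes encode alternative activators. Ubiquitin is attached by a cascade in which UBE2 enzymes (E2) carry it to a ligase, among them the cullin-RING ligases, whose scaffolds are the CUL proteins and whose substrate receptors include the F-box (FBXO) proteins bound to CUL1. USP proteins are proteases that remove ubiquitin.

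The promoter sequences below show what the BG4 peaks cover at members marked in both lists. They come from RefSeq promoters of GRCh38.p14, are written 5′ to 3′ on the gene's own strand, and are those of the 6 members with the best summed rank of −log10 q that had a listed promoter under a peak. A G-run motif was defined as 4 runs of at least GGG separated by 1 to 7 bases of any kind, on either strand. Capitals mark the runs of such a motif, which appear as C runs when the motif is on the opposite strand. PSMD2, PSMC3, PSME3IP1 and PSME2 held a motif and are cut to it with 4 flanking bases. PSME2 held motifs on both strands, and the stretch shown spans them.
PSMD2, chr3:184299068-184299096, plus strand: ccgaGGGcGGGGtccgaGGGcGGGGctct
PSMC3, chr11:47426594-47426619, minus strand: ggatCCCaCCCttctCCCtCCCtttc
PSME3IP1, chr16:57186283-57186312, minus strand: accgCCCCagCCCtCCCtcagtCCCCtagg
PSME2, chr14:24146651-24146830, minus strand: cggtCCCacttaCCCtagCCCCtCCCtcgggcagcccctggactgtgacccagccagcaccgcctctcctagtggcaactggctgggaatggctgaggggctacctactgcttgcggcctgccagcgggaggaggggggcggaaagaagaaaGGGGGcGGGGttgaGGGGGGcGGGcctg

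At PSMD2 the HD and Ctrl summits lay 9 bp and 8 bp from the middle of the motif. At PSMC3 they lay 63 bp (HD) and 157 bp (Ctrl) away, and the Ctrl peak did not reach the motif. At PSME3IP1 the distances were 38 bp in HD and 145 bp in Ctrl. At PSME2 the HD summit lay 13 bp from the middle of the stretch shown, which falls between the motifs and in neither. The PSME2 Ctrl summit lay 662 bp from that middle, and the Ctrl peak did not reach the stretch. FBXO34 and USP14 had no motif in the same window although both carried peaks, and their 250 bases before the start site are shown with every run of at least 3 G or 3 C in capitals.
FBXO34, chr14:55271171-55271420, plus strand: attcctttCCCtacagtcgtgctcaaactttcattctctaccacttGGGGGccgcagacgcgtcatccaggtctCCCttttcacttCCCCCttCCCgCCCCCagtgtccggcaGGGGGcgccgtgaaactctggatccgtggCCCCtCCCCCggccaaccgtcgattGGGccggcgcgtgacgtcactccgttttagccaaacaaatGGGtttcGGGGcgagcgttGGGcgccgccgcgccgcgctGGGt
USP14, chr18:158307-158556, plus strand: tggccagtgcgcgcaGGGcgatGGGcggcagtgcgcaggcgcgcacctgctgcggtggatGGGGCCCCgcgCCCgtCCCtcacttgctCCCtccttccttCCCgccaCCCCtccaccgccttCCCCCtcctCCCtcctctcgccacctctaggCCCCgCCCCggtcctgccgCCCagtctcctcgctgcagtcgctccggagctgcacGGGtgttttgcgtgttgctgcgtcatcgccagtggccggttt

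Each of these stretches held 14 separate stretches of capitals, and both promoters held the motif when loops of up to 12 bases were allowed. The promoter of USP42, also among the members marked in both lists, was not used here. That of CUL2 as listed lay away from its peaks.

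BG4 peaks lay at 25 of 175 members in HD (14.3%, 9.46 to 20.4) and at 35 in Ctrl (20%, 14.3 to 26.7). The same lists marked 8.11% of all protein-coding genes in HD and 10.9% in Ctrl, so the members' share was above the background in both lists. Both lists marked 16 members (9.14%, background 5.20%), the HD list alone marked 9 (5.14%, background 2.92%) and the Ctrl list alone 19 (10.9%, background 5.70%). In all, 44 members carried a peak in at least 1 list (25.1%, background 13.8%) and 131 carried none. Of the members marked in HD, 64.0% (16 of 25) were also marked in Ctrl, against 64.1% of all genes marked in HD. Of those marked in Ctrl, 45.7% (16 of 35) were also marked in HD, against 47.7% of all genes. The longer Ctrl list bears on its count: with 2172 peaks from each list by −log10 q, 25 members were marked in HD (14.3%, background 8.11%) and 23 in Ctrl (13.1%, background 7.83%).

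**Figure D1:**
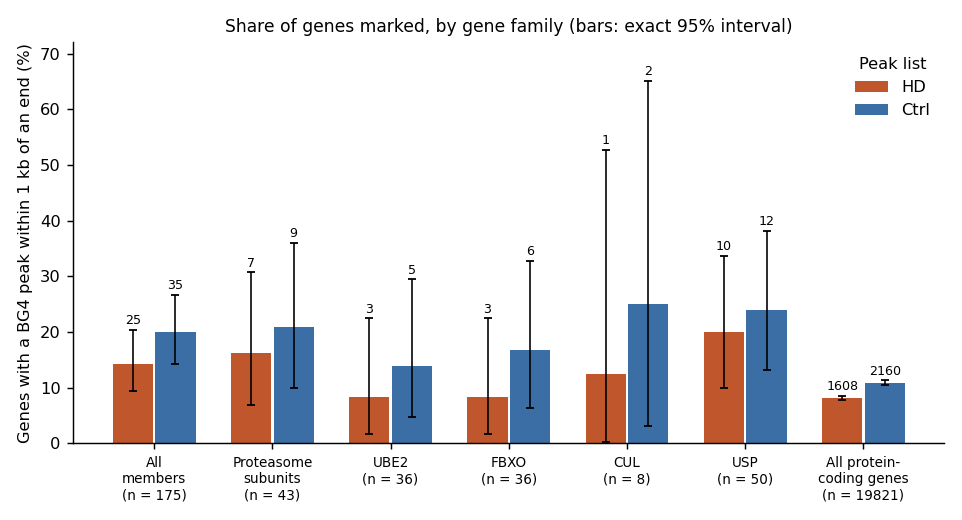
Bars give the percentage of genes with a BG4 peak within 1 kb of a gene end, HD left of Ctrl, for all members, for each family and for all protein-coding genes; error bars are exact 95% binomial intervals and the number above each bar is the count of marked genes. USP genes had the highest HD share, 20%, and the intervals of the families overlap.

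By family, the USP genes were marked most often in HD, at 10 of 50 (20%), with 12 in Ctrl (24.0%). Proteasome genes were marked at 7 of 43 in HD (16.3%) and 9 in Ctrl (20.9%). UBE2 genes were marked at 3 of 36 in HD (8.33%) and 5 in Ctrl (13.9%), and FBXO genes at 3 of 36 in HD (8.33%) and 6 in Ctrl (16.7%). CUL genes were marked at 1 of 8 in HD and 2 in Ctrl. Against the background of 8.11% in HD and 10.9% in Ctrl, the UBE2 and FBXO shares in HD were at the background. The families are small and their binomial intervals overlap, as the bar plot by family shows.

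Within the proteasome, 12 of 43 genes carried a peak in at least 1 list, spread over the core, the cap and the activators. Core genes were marked at 3 of 19 in HD (15.8%) and 2 in Ctrl (10.5%), cap genes at 3 of 20 in HD (15.0%) and 5 in Ctrl (25%), and activator genes at 1 of 4 in HD and 2 in Ctrl. Cap genes are here all PSMC and PSMD members other than PSMC3IP, so they include PSMD9, an assembly chaperone of the cap. The core share in Ctrl was near the 10.9% of all genes, and the counts are small. Only PSMB10, PSMC3, PSMD2 and PSME2 were marked in both lists. PSMD2, the cap subunit on which ubiquitin receptors and shuttle proteins dock, had the best summed rank of them. Its peaks (hg38 chr3:184298960-184299267 in HD, chr3:184298964-184299256 in Ctrl) span the gene start, with both summits upstream of it. The peak held 47 ChIP fragments in HD (34.5 to 62.5), where input on the same scale gave 7.84, and 32 in Ctrl (21.9 to 45.2), where input gave 5.53. ChIP over input was thus 5.99 in HD and 5.78 in Ctrl, with summits 1 bp apart.

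PSMC3, a cap ATPase, had 53 fragments in HD (39.7 to 69.3) and 43 in Ctrl (31.1 to 57.9), or 4.21 times input in HD and 4.98 times in Ctrl. The 2 PSMC3 summits lay 94 bp apart, both upstream of the gene start. PSMB10, which encodes an inducible catalytic subunit of the immunoproteasome, had 29 fragments in HD (19.4 to 41.6, 5.03 times input) and 22 in Ctrl (13.8 to 33.3, 4.08 times input). Its summits lay inside the gene, 1046 bp (HD) and 985 bp (Ctrl) downstream of the start. PSME2, a subunit of the PA28 activator that interferon induces, had 29 fragments in HD (19.4 to 41.6, 2.96 times input) and 37 in Ctrl (26.1 to 51.0, 6.42 times input). The PSME2 peaks were chr14:24146612-24147496 in HD and chr14:24147263-24147509 in Ctrl. The HD summit lay 117 bp upstream of the PSME2 start and the Ctrl summit 792 bp upstream, so that the 2 overlapping peaks had summits 675 bp apart. Both PSME2 peaks also reached the start of RNF31, the neighbouring gene of a ligase that builds linear ubiquitin chains.

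PSMA5, PSMD8 and PSMB5 were marked in HD only. PSMA5, an alpha subunit, had 2 HD peaks, one of 46 fragments (33.7 to 61.4, 4.70 times input) with its summit 98 bp upstream of the start, and one of 32 fragments past the other end of the gene, near SORT1. PSMD8, a cap subunit, had 31 HD fragments (21.1 to 44.0, 5.53 times input). PSMB5, the chymotrypsin-like catalytic subunit and target of bortezomib, had 65 HD fragments (50.2 to 82.8), but input gave 33.6 there, 6.09 times the genome-wide expectation. Its ChIP over input was 1.94 and the peak, near the 3′ end of the gene, ranked 2171 of 2172 by −log10 q.

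PSMA2, PSMC4, PSMD9, PSMD3 and PSME1 were marked in Ctrl only. PSMA2, an alpha subunit, had the highest −log10 q of all 19 members marked in Ctrl only, with 36 fragments (25.2 to 49.8) where input gave 4.65, a ratio of 7.74. The PSMA2 peak also reached MRPL32, the gene of a mitochondrial ribosomal protein, and the nearest HD peak was 20 kb away. PSMC4, a cap ATPase, had 24 Ctrl fragments (15.4 to 35.7, 6.42 times input). PSMD9, an assembly chaperone of the cap, had 22 Ctrl fragments (5.89 times input), and PSMD3, a cap subunit, had 35 (2.95 times input). PSME1, the partner of PSME2 in PA28, had 18 Ctrl fragments (10.7 to 28.4, 4.82 times input), the lowest number of any marked member.

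The 31 proteasome genes with no peak in either list included PSMA1, PSMA3, PSMA4, PSMA6, PSMA7 and PSMA8 of the alpha ring and PSMB1 to PSMB4, PSMB6 to PSMB9 and PSMB11 of the beta ring. Of the cap genes so grouped by name, PSMC1, PSMC2, PSMC5 and PSMC6, and PSMD1, PSMD4 to PSMD7 and PSMD10 to PSMD14, had none. The activator genes PSME3 and PSME4 had none either. PSME3IP1, whose product binds the PSME3 activator, was marked in both lists with 29 fragments in HD (19.4 to 41.6, 4.88 times input) and 34 in Ctrl (23.5 to 47.5, 8.26 times input). The Ctrl value was the highest ChIP over input of any member in either list.

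Among the E2 genes, UBE2S was marked in both lists. UBE2S, which extends ubiquitin chains for the anaphase-promoting complex, had 23 fragments in HD (14.6 to 34.5, 3.99 times input) and 20 in Ctrl (12.2 to 30.9, 5.35 times input). UBE2Z, an E2 charged by the E1 enzyme UBA6, was marked in HD only, with 33 fragments (22.7 to 46.3, 4.50 times input). UBE2M, the E2 that attaches NEDD8 to cullins, UBE2V1, a catalytically inactive partner of UBE2N, and UBE2Q2 were marked in Ctrl only. UBE2V1 had 33 Ctrl fragments (4.37 times input), UBE2M 21 (4.87 times input) and UBE2Q2 21 (4.64 times input). The remaining 30 E2 genes had no peak in either list.

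FBXO24, FBXO34 and FBXO48 were the F-box genes marked in both lists, and none was marked in HD only. FBXO34 had 49 fragments in HD (36.3 to 64.8, 5.0 times input) and 39 in Ctrl (27.7 to 53.3, 7.38 times input), with its summits at the same base, 143 bp upstream of the start. FBXO48 had 27 fragments in HD (17.8 to 39.3, 4.17 times input) and 31 in Ctrl (21.1 to 44.0, 4.71 times input). FBXO24 had 27 fragments in HD (17.8 to 39.3, 3.22 times input) and 23 in Ctrl (14.6 to 34.5, 5.32 times input). FBXO11, FBXO31 and FBXO38 were marked in Ctrl only, with 23, 23 and 20 fragments and 5.33, 6.15 and 4.61 times input. FBXO31 is a receptor for cyclin D1 and FBXO11 one for the repressor BCL6.

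Of the 8 cullin genes, CUL2 was marked in both lists and CUL3 in Ctrl only. CUL2, the scaffold of the ligase that holds the von Hippel-Lindau protein, had 42 fragments in HD (30.3 to 56.8, 5.0 times input) and 33 in Ctrl (22.7 to 46.3, 5.10 times input), with summits 5 bp apart. Both CUL2 peaks also reached the start of CREM, which lies nearer to their summits than the CUL2 end does. CUL3, the scaffold that works with BTB-domain receptors such as KEAP1, had 28 Ctrl fragments (18.6 to 40.5, 3.71 times input), and the nearest HD peak was 1724 kb away. CUL1, CUL4A, CUL4B, CUL5, CUL7 and CUL9 were not marked in either list.

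Among the deubiquitinase genes, USP1, USP5, USP14, USP34 and USP42 were marked in both lists. USP42 had the best summed rank of all members, at 220 of 2172 peaks in HD and 177 of 3376 in Ctrl by −log10 q. Its peaks were chr7:6081247-6081767 in HD and chr7:6081394-6081734 in Ctrl, inside the gene near one end. They held 65 fragments in HD (50.2 to 82.8) against 14 from input, and 46 in Ctrl (33.7 to 61.4) against 6.44 from input. The USP42 ratio was thus 4.65 in HD and 7.14 in Ctrl, with the higher fragment number in HD and the higher ratio in Ctrl. USP14, a deubiquitinase that sits on the proteasome cap, had 35 fragments in HD (24.4 to 48.7, 4.90 times input) and 31 in Ctrl (21.1 to 44.0, 4.10 times input). USP1, which acts on FANCD2 and PCNA in DNA repair, had 22 fragments in HD (13.8 to 33.3, 3.99 times input) and 26 in Ctrl (17.0 to 38.1, 4.02 times input).

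USP34 had 27 fragments in HD (17.8 to 39.3, 4.87 times input) and 24 in Ctrl (15.4 to 35.7, 4.29 times input). USP5, which takes apart unanchored ubiquitin chains, had 1 HD peak of 43 fragments (31.1 to 57.9, 3.07 times input). In Ctrl USP5 had 2 peaks, one of 24 fragments (15.4 to 35.7, 4.17 times input) 492 bp inside the gene and one of 30 fragments (20.2 to 42.8, 3.48 times input) 22 bp upstream of the start. The single HD peak overlapped both.

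USP3, USP20, USP21, USP35 and USP36 were marked in HD only. USP20 had 40 HD fragments (28.6 to 54.5, 5.95 times input) and the highest −log10 q of the members marked in HD only. USP3, which acts on ubiquitinated histones, had 43 HD fragments (31.1 to 57.9, 5.48 times input). USP36, a nucleolar deubiquitinase, had 38 HD fragments (26.9 to 52.2, 4.76 times input), and USP35 had 38 (4.53 times input). The USP21 peak, with 26 HD fragments (3.44 times input), lay past the 3′ end of the gene, near PPOX.

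USP16, USP19, USP22, USP25, USP37, USP39 and USP54 were marked in Ctrl only. USP25 had 27 Ctrl fragments (17.8 to 39.3, 7.22 times input), the highest ratio of these, although a second whole number also matched its deposited values, and the nearest HD peak was 1346 kb away. USP39, a splicing factor that lacks deubiquitinase activity, had 26 Ctrl fragments (17.0 to 38.1, 6.02 times input). USP37 had 27 (17.8 to 39.3, 5.71 times input). USP22, the deubiquitinase of the SAGA coactivator, had 24 (15.4 to 35.7, 6.42 times input). USP19, USP54 and USP16 had 30, 24 and 23 Ctrl fragments, and 4.57, 5.48 and 3.75 times input.

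At the 16 members marked in both lists, ChIP over input was lower in HD than in Ctrl at 12, with a median HD to Ctrl ratio of 0.866 (range 0.461 to 1.23). Over all 1030 protein-coding genes marked in both lists the median was 0.907, and 61.0% were below 1. The counting interval of the ratio lay below 1 at 3 of the 16 members (18.8%), against 9.51% of all these genes. These were PSME2 (0.461, interval 0.273 to 0.770), whose HD and Ctrl summits lay 675 bp apart so that its ratio does not describe 1 site, PSME3IP1 (0.591, 0.347 to 1.000, below 1 before rounding) and USP42 (0.650, 0.439 to 0.970). The interval lay above 1 at 0 of the 16 members, against 2.52% of all these genes. At the 14 members with summits within 200 bp the median was 0.906, with 2 intervals below 1 (14.3%), against a median of 0.909 and 9.27% over the 960 such genes. The ratio was highest at PSMB10 (1.23, 0.684 to 2.25), USP14 (1.19, 0.715 to 2.00), USP34 (1.14, 0.631 to 2.06) and PSMD2 (1.04, 0.648 to 1.68), all with intervals on both sides of 1. The intervals take the input expectation as known and cover no spread between libraries.

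**Figure D2:**
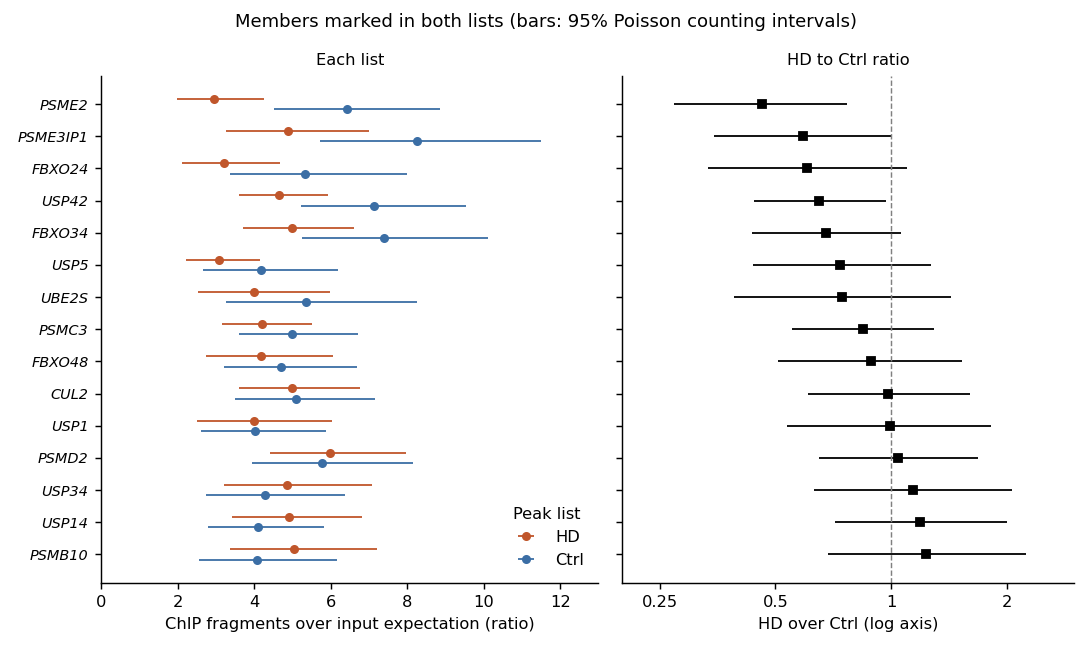
Left, ChIP fragments over the input expectation at 15 of the 16 members marked in both lists, HD above Ctrl for each gene; right, the HD to Ctrl ratio on a log axis with a dashed line at 1. Bars are 95% counting intervals, and the genes run from the lowest ratio (PSME2, 0.461, with summits 675 bp apart) to the highest (PSMB10, 1.23).

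Scaling by ChIP depth in place of the input expectation moved some of these values. On that scale, which sets the fragments against the genome-wide mean of the same ChIP track, USP42 had an HD to Ctrl ratio of 0.958 (0.647 to 1.43). Input at the USP42 peak was 14 in HD and 6.44 in Ctrl, or 2.54 and 1.72 times the genome-wide expectation. PSME2 stayed at 0.532 (0.315 to 0.888) and PSME3IP1 at 0.578 (0.340 to 0.978). FBXO48 and USP1 were at 0.591 (0.339 to 1.02) and 0.574 (0.310 to 1.05) by depth, against 0.886 and 0.993 by input. USP5 was at 1.21 by depth and 0.738 by input against the Ctrl peak inside the gene, which had the higher −log10 q of its 2 Ctrl peaks. Against the Ctrl peak whose summit lay 60 bp from the HD summit it was at 0.972 (0.596 to 1.60) by depth and 0.884 (0.542 to 1.46) by input. The direction depended on the scale at PSMD2 (0.996), USP34 (0.763), USP14 (0.766) and PSMB10 (0.894), whose ratios were below 1 by depth and above 1 by input. By depth alone 15 of 16 members were below 1, with a median of 0.805, against 72.7% and a median of 0.887 over all 1030 genes.

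**Figure D3:**
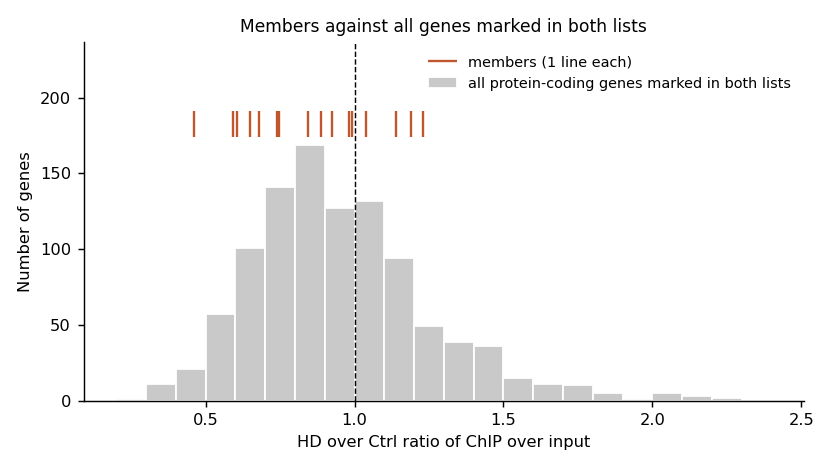
Grey bars count all 1030 protein-coding genes marked in both lists by their HD to Ctrl ratio of ChIP over input, and each coloured line above them is 1 of the 16 members. The members lie between 0.461 and 1.23, within the range of all genes (0.283 to 2.22).

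The peaks of the members lay at gene starts. Of the marked members with a known strand, the peak was nearer the start than the end of the gene at 21 of 23 in HD (91.3%, 72 to 98.9) and 32 of 32 in Ctrl (lower bound 89.1%), against 93.7% and 95.3% of all marked genes. The 2 exceptions in HD, PSMB5 and USP21, have been described. Among peaks at starts, the summit was within 250 bp of the start at 17 in HD (81.0%) and 24 in Ctrl (75%), against 74.4% in HD and 76.2% in Ctrl for all genes. It was upstream of the start at 16 in HD (76.2%) and 25 in Ctrl (78.1%). The median position was −98.0 bp in HD and −108 bp in Ctrl for the members, and −106 bp in HD and −92.0 bp in Ctrl for all genes. At 14 of the 16 members marked in both lists the 2 summits lay within 200 bp of each other (87.5%, against 93.2% of all genes marked in both), and PSME2 and USP5 were the exceptions.

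**Figure D4:**
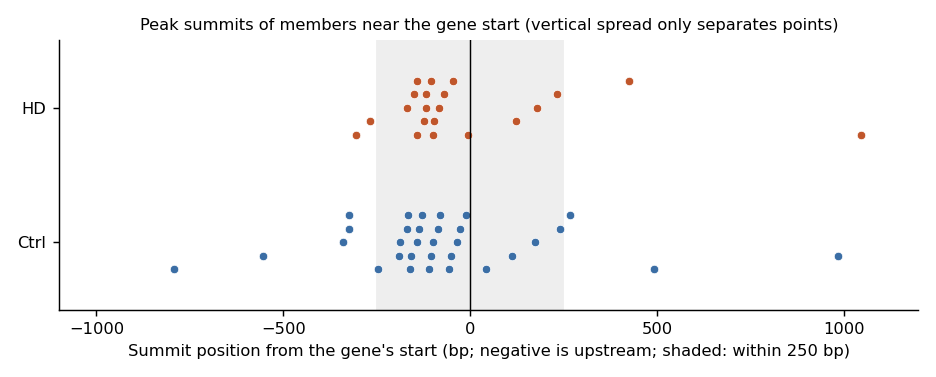
Each point is the summit of the strongest peak of 1 marked member with a known strand whose peak is nearest the gene start, by distance from that start in bp, HD above Ctrl. Most points of both lists fall within the shaded 250 bp on either side (17 of 21 in HD and 24 of 32 in Ctrl), mainly upstream.

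Many of these peaks also reached the end of another protein-coding gene, so the member is not the only gene they can be assigned to. This held for the strongest peak of 9 of 25 members in HD (36%, against 36.9% of all marked genes) and 11 of 35 in Ctrl (31.4%, against 35.6%). The pairs were CUL2 with CREM, FBXO24 with LRCH4, FBXO48 with APLF, PSME2 with RNF31 and PSME3IP1 with RSPRY1 in both lists. USP5 with CDCA3, USP20 with C9orf78, USP35 with KCTD21 and USP21 with PPOX were pairs in HD. FBXO31 with MAP1LC3B, PSMA2 with MRPL32, PSMD9 with HPD, USP19 with LAMB2, USP37 with CNOT9 and USP39 with TMEM150A were pairs in Ctrl. When each peak was given to the gene whose end was nearest its summit, CUL2, PSME3IP1, USP20 and USP21 lost their call in HD. In Ctrl CUL2, FBXO31, FBXO48, PSMA2, PSMD9, PSME2 and PSME3IP1 lost theirs.

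G-run motifs were found in a larger share of the promoters of marked than of unmarked members, but the intervals of the shares overlap. RefSeq promoters, from 250 bases before to 50 bases after the start, were matched for 143 of 175 members and for 15813 protein-coding genes, and 37.1% of the members' promoters and 30.1% of all held the motif. It was found at 19 of 41 marked members (46.3%, 30.7 to 62.6) and 34 of 102 unmarked members (33.3%, 24.3 to 43.4). Among all genes the shares were 36.1% of marked and 29.1% of unmarked promoters. A marked gene need not have its searched promoter under a peak. For example, the peaks of CUL2, PSMB10, PSMB5, USP21 and PSME1 lay away from it, and of these only PSME1 held the motif. By list, the motif was at 7 of 14 members marked in both (50%), 1 of 9 marked in HD only (11.1%, 0.281 to 48.2) and 11 of 18 marked in Ctrl only (61.1%, 35.7 to 82.7). Over all genes these shares were 38.8%, 32.5% and 35.5%. With loops of up to 12 bases the motif was at 3 of the 9 members marked in HD only (33.3%, 7.49 to 70.1) and 12 of the 18 marked in Ctrl only (66.7%, 41.0 to 86.7).

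**Figure D5:**
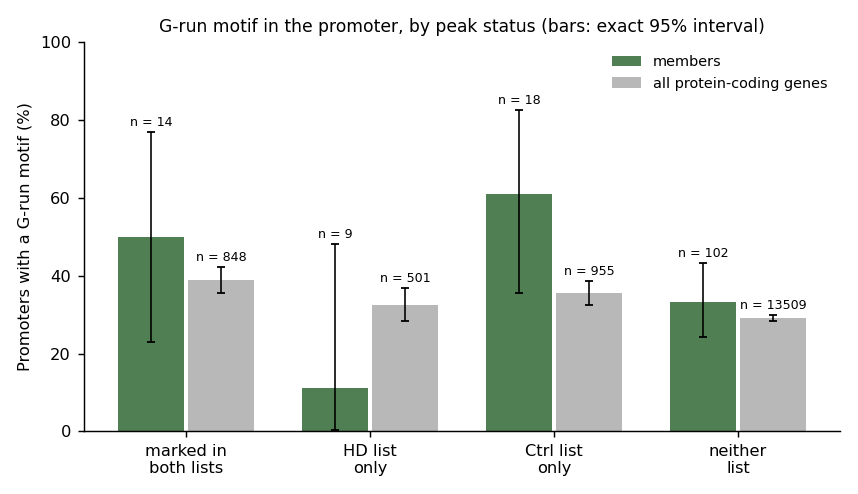
Percentage of promoters that hold 4 runs of at least GGG with loops of 1 to 7 bases on either strand, for members (left bar) and all protein-coding genes (right bar) by peak status, with exact 95% binomial intervals and the number of promoters above each bar. The member shares run from 11.1% (HD only) to 61.1% (Ctrl only), with wide intervals that overlap each other.

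Proteasome promoters held the motif in a smaller share than UBE2, FBXO and USP promoters, with intervals that overlap in part. It was found in 9 of 38 proteasome promoters (23.7%, 11.4 to 40.2), 15 of 28 UBE2 promoters (53.6%, 33.9 to 72.5), 12 of 29 FBXO promoters (41.4%), 15 of 39 USP promoters (38.5%) and 1 of 7 CUL promoters. Within the proteasome, 6 of the 12 marked genes held the motif, namely PSMC3, PSMC4, PSMD2, PSMD9, PSME1 and PSME2, and 3 of 26 unmarked genes did, namely PSMA4, PSMC6 and PSMD11. With loops of up to 12 bases 6 of the 12 marked and 7 of the 26 unmarked genes (26.9%, 11.6 to 47.8) held it. PSMA2, PSMA5, PSMB5, PSMB10, PSMD3 and PSMD8 were marked without it. The peaks of PSMB5, PSMB10 and PSME1 lay away from the promoter searched. The median GC content was 66.0% for marked and 67.7% for unmarked members, against 62.7% over all promoters. By family it was 61.7% for proteasome, 71.7% for UBE2, 67.7% for FBXO, 70.0% for USP and 53.7% for CUL promoters. Whether GC content bears on the motif shares of the families was not tested.

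NFE2L1, a transcription factor, induces proteasome genes through an antioxidant response element. Its core letters TGANNNNGC were searched on both strands and were found in 24 of 38 proteasome promoters (63.2%, 46.0 to 78.2), 15 of 28 UBE2 promoters (53.6%, 33.9 to 72.5), 15 of 29 FBXO promoters (51.7%, 32.5 to 70.6), 11 of 39 USP promoters (28.2%, 15.0 to 44.9) and 42.7% of all promoters. Among proteasome genes the core was in 9 of 12 marked and 15 of 26 unmarked promoters. A match is a description of the letters and not a bound site.

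Few members lay near the 1 kb limit. Just inside it were the PSMB10 peaks, at a gap of 902 bp in HD and 917 bp in Ctrl, and the second PSMA5 peak in HD, at 908 bp. Just outside were CUL4A in HD, at 1221 bp with 28 fragments, PSMC6 at 1249 bp in HD and 1273 bp in Ctrl, and UBE2R2 in Ctrl, at 1773 bp with 26 fragments. The PSMC6 peaks lay over an end of the neighbouring gene STYX, which encodes a phosphatase-like protein, with gene start and gene end not told apart here. They had 87 fragments in HD and 56 in Ctrl, and their −log10 q, 33.0 in HD and 22.4 in Ctrl, was above that of any marked member.

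A chosen set of 86 further ubiquitin pathway genes, which does not cover the pathway, was marked at 12 in HD (14%, 7.42 to 23.1) and 23 in Ctrl (26.7%, 17.8 to 37.4), against the 8.11% and 10.9% of all protein-coding genes. The set was chosen with earlier results of these data known, so its shares describe only these genes. Both lists marked 11 of them, the HD list alone only UBA6, and the Ctrl list alone 12, where the lists marked 5.20%, 2.92% and 5.70% of all genes. Partners of the cullins, from RING proteins to adaptors, were marked at 3 of 15 in HD and 6 in Ctrl. RBX1 and RNF7, the catalytic RING proteins, and SKP2, an F-box receptor of CUL1 ligases, were in both lists. RBX1 had 45 fragments in HD and 36 in Ctrl, RNF7 had 30 in HD and 24 in Ctrl, and SKP2 had 34 in HD and 25 in Ctrl. DDB1, BTRC and ELOC were in Ctrl only. NFE2L1 was marked in both lists, with 46 fragments in HD (33.7 to 61.4, 5.25 times input) and 39 in Ctrl (27.7 to 53.3, 4.99 times input). So was ADRM1, a ubiquitin receptor of the cap, with 36 fragments in HD (5.84 times input) and 33 in Ctrl (6.42 times input).

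Of the shuttle and segregase genes, VCP, the ATPase that extracts ubiquitinated proteins, was marked in both lists with 44 fragments in HD and 31 in Ctrl. UBQLN1, UBQLN4 and UFD1 were marked in Ctrl only. The UBQLN4 and UFD1 peaks also reached LAMTOR2 and CDC45, with summits 1005 bp and 608 bp from the nearest UBQLN4 and UFD1 ends. The VCP peak in HD also reached FANCG, and the peaks of DDB1, SKP2 and NFE2L1 reached TKFC, LMBRD2 and COPZ2. UBA6 was the 1 marked gene of 9 E1 and E1-like genes, with 34 HD fragments (23.5 to 47.5, 5.44 times input). UBA6 and its E2 gene UBE2Z were each a single call in HD only. These were 1 of 9 E1 and E1-like genes (11.1%) and 1 of 36 UBE2 genes (2.78%), against 2.92% of all genes. A link between the 2 calls was not tested. Among the ligases UBE3A and WWP1 were in both lists, and ITCH, NEDD4, RNF168 and SMURF2 in Ctrl only. CYLD, a deubiquitinase outside the USP names, had 31 fragments in HD (4.43 times input) and 29 in Ctrl (7.76 times input), while STAMBP and TNFAIP3 were in Ctrl only. COPS7A was the 1 marked gene of 9 COP9 signalosome genes, in both lists, with 44 fragments in HD and 28 in Ctrl.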

How the data were processed

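The authors deposited a list of peaks for each condition, named in the labels of its 2 ChIP samples. Per the submitters' processing notes the build was hg38 and the tools were MACS2 2.2.7.1, SAMtools, Bowtie2 2.5.0 and FastQC 0.11.9. No source used here gives their settings or the treatment of duplicates. The deposited columns are an integer score, a fold enrichment over local background (a ratio), −log10 p, −log10 q and a summit offset. The lowest deposited −log10 q was 1.30 in HD and 1.31 in Ctrl.

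ChIP fragments and input expectation at each summit were recovered from fold and −log10 p, since the fold is (pileup + 1) / (expectation + 1) and p the Poisson tail of the pileup. The pileup was a whole number of fragments times 0.715 (HD) or 0.927 (Ctrl). A whole number matched within 0.01 of −log10 p for 2259 of 2269 HD and 3496 of 3507 Ctrl peaks, and for every member peak. Where more than 1 matched, as at USP25 in Ctrl, the closest was used. The step was tested on simulated data. Genes came from RefSeq (GRCh38.p14, the assembly of hg38), with scaffolds left out. Python 3.11.15 and scipy 1.17.1 were used.

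The members and lists were chosen with earlier results of these data known. Marked members were named, with intervals for those in both lists and the strongest 6 in 1 list. No set test was made. Values of some genes are not reported here, and counts include them.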

Additional observations from a re-analysis of the deposited data

How the results depend on the processing

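The counts of members were recomputed under 6 other settings. With a window of 500 bp 24 members were marked in HD and 33 in Ctrl (all genes 7.27% and 9.97%), and with a window of 2 kb 27 in HD and 37 in Ctrl (8.66% and 11.7%). At −log10 q of at least 3 there were 19 in HD and 35 in Ctrl (7.06% and 10.0%), with 1 gene per peak 21 and 28 (6.57% and 9.0%), and with the summit in the window 24 and 35 (7.92% and 10.7%). With 2172 peaks from each list the Ctrl count was 23 (all genes 7.83%), with 2 UBE2 genes and 1 CUL gene. The Ctrl list alone then marked 12 members and the HD list alone 14, against 19 and 9 in the main counts. No share over all genes is given beside these. The Ctrl counts fell because CUL3, PSMB10, USP1 and others lay below −log10 q of 4.86. The number of CUL genes was 2 in HD with a window of 2 kb, and with 1 gene per peak 0 in HD and 1 in Ctrl, because CREM is nearer to the CUL2 summits. With loops of up to 12 bases 61.0% of marked and 51.0% of unmarked members held the motif. With the HD and Ctrl peaks of nearest summits, a choice made after seeing the data, the median ratio was 0.885. The other 88 counts and summaries stayed within 1.5 times, within 1.1 times for the median ratio, or within their interval. All 48 alternative values of single genes stayed within their counting intervals, which are wide. Depth scaling still changed the direction at PSMD2, USP34, USP14, PSMB10 and USP5. Taking the peak with the highest fold changed no gene, and taking the nearest summits changed only USP5, because the same peaks were chosen elsewhere.

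No paired analysis was possible because each condition has 1 peak list, so replicates were not left out either. The lists limit every statement to called peaks: depth differed by 1.47 times, fragments at uncalled sites were not used here, and the spread between libraries is unknown.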

Other observations

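Peaks also lay inside members away from their ends. The USP42 gene held an internal peak in both lists, with 61 fragments in HD (46.7 to 78.4, 5.82 times input) and 45 in Ctrl (32.8 to 60.2, 7.29 times input), beside the peak at its end. USP32, not marked at its ends, had an internal peak of 60 fragments in HD (45.8 to 77.2, 4.65 times input) and 50 in Ctrl (37.1 to 65.9, 5.96 times input), 222 bp and 214 bp from a start listed inside the gene. UBE2D3 had 2 internal peaks in Ctrl, of 29 and 19 fragments, 45 bp and 309 bp from a listed internal start. FBXO46 had an internal Ctrl peak of 30 fragments (7.71 times input) that lay 13491 bp from the nearest listed start. FBXO32 and UBE2L3 had internal Ctrl peaks of 35 and 23 fragments.

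Of 122 pseudogenes named after members, none carried a peak within 1 kb of an end in either list. Of 30 other noncoding genes so named, 3 were marked in HD and 5 in Ctrl. The shares over all pseudogenes and all noncoding genes were not counted, so these counts have no background beside them. USP34-DT, FBXO34-AS1 and PSMA3-AS1 were in both lists, the first 2 through the peak of the coding gene and PSMA3-AS1 through a peak at ARID4A. FBXO38-DT and UBE2D3-AS1 were in Ctrl only.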
